A study of Mus musculus with 72 samples.

Results

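The liver responds to dietary protein in ways that can depend on genetic background, and the question here was in which genes female mice of 2 inbred strains, C57BL/6J and DBA/2J, answered a Low Protein diet differently. The quantity of interest is a difference of differences, called the interaction below: the Low Protein minus Control change in DBA/2J females, minus the same change in C57BL/6J females, in log2 units. It was estimated by RNA sequencing of 24 of the 72 liver libraries of the series. They were chosen by the sex, strain and diet in their labels, with 6 libraries in each of 4 groups: C57BL/6J females on Control, C57BL/6J females on Low Protein, DBA/2J females on Control and DBA/2J females on Low Protein. All mice were 23 weeks old, had been on their diet for 13 weeks from 10 weeks of age, and were fasted for 16 h before the liver was taken. The mice are inbred and carry no transgene or deletion named in the labels, so each strain stands for a single genotype. The other libraries, from males and from a Medium Protein diet, served to estimate the spread and for comparison. Another strain that the title of the series mentions was not analysed here.

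Amino acids in excess of need are broken down in the liver, and their nitrogen leaves through the urea cycle. When dietary protein falls, hepatocytes are known to lower amino acid catabolism and to shift lipid handling. This runs partly through the transcription factor ATF4, which responds to amino acid shortage, and through PPARA, which switches on fatty acid oxidation during fasting. C57BL/6J and DBA/2J are old inbred strains that differ in lipid metabolism and in many liver genes.

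The 24 libraries held 26.9 M to 38.4 M counts each (M for mega), with a median of 31.7 M. Xist, expressed from the inactive X chromosome, was between 1095 and 1996 CPM (the usual count unit scaled to library size) in every female library of the series and at most 2.29 CPM in males. The 10 hepatocyte marker genes, albumin among them, summed to between 59120 and 100320 CPM in each library. On the first principal component, which held 45.5% of the variance of these libraries, the strains separated. C57BL/6J Control replicate 1 and C57BL/6J Low Protein replicate 1 stood apart on the second component, and C57BL/6J Control replicate 2 and Low Protein replicate 6 had the most genes detected (31748 and 29215, against 23334 to 25210 in the other libraries). Position-like codes in the labels also lined up with the interaction: among these 4 groups the letters A and B occurred only in C57BL/6J Low Protein and DBA/2J Control, and E and F only in C57BL/6J Control and DBA/2J Low Protein. A fit with the letter as a term called 32 genes, among them all 18 described here. The number in the code was never shared between these 4 groups. Any effect of that number therefore cannot be told apart from the group, and the letter fit does not address it. The share of counts from mitochondrial rRNA, a measure of library composition, ran from 20.1 to 21.8% and from 17.2 to 19.1% in C57BL/6J on Control and Low Protein, and from 15.5 to 17.4% and from 13.9 to 16.1% in DBA/2J. Its part in the results was not tested. The labels give the libraries as separate samples, and the p-values below measure the spread between them.

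Of 19362 genes tested, 18 (0.093%) differed between the strains in their Low Protein response at an adjusted p below 0.05 in edgeR's quasi-likelihood test. In 6 of them (0.031% of genes) the interaction was above 0, meaning a higher or less lowered level on Low Protein in DBA/2J than in C57BL/6J: Prkar2a, Slc10a2, Man2a1, Gm15375, Acox2 and Pomt2. In 12 (0.062%) it was below 0: Gm7536, Slc27a1, Cfap54, Smo, Magi1, Cyp4a32, Igflr1, Gpatch2l, Corin, Gm12481, Trpm6 and Hist1h3f. The estimate was at least 2-fold in 11. The strains' own estimates had opposite signs in 17 of the 18, a share that was not counted over all genes. Choosing genes by the difference between these estimates itself favours opposite signs. Only Prkar2a was called in both strains. An unadjusted p below 0.05 was found for 2147 genes (11.1%).

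The number of calls moved with single libraries. It was 83 without C57BL/6J Control replicate 1, 62 without DBA/2J Low Protein replicate 1, 40 without C57BL/6J Control replicate 3, 37 without C57BL/6J Low Protein replicate 3 and 36 without DBA/2J Control replicate 3. All 18 genes remained called in each of these 5 fits. Over all 24 such fits the count ran from 12 to 83, and 10 of the 18 genes were called in every one. With scaling by library totals the split was 2 above and 10 below 0. Of 14 other settings, all kept the calls of Slc10a2, Cfap54 and Gm7536, 13 those of Smo, Slc27a1 and Gm15375, and 12 those of Corin and Prkar2a. The call was kept in 11 for Acox2, Man2a1 and Gm12481, in 9 for Gpatch2l, Trpm6, Magi1 and Cyp4a32 and in 8 for Pomt2. Of 13 settings in which they were fitted, Igflr1 was called in 9 and Hist1h3f in 5. DESeq2, among these settings, gave neither gene an adjusted p. The setting that ended most calls was a fit to the compared groups only, which left 6.

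**Figure D1:**
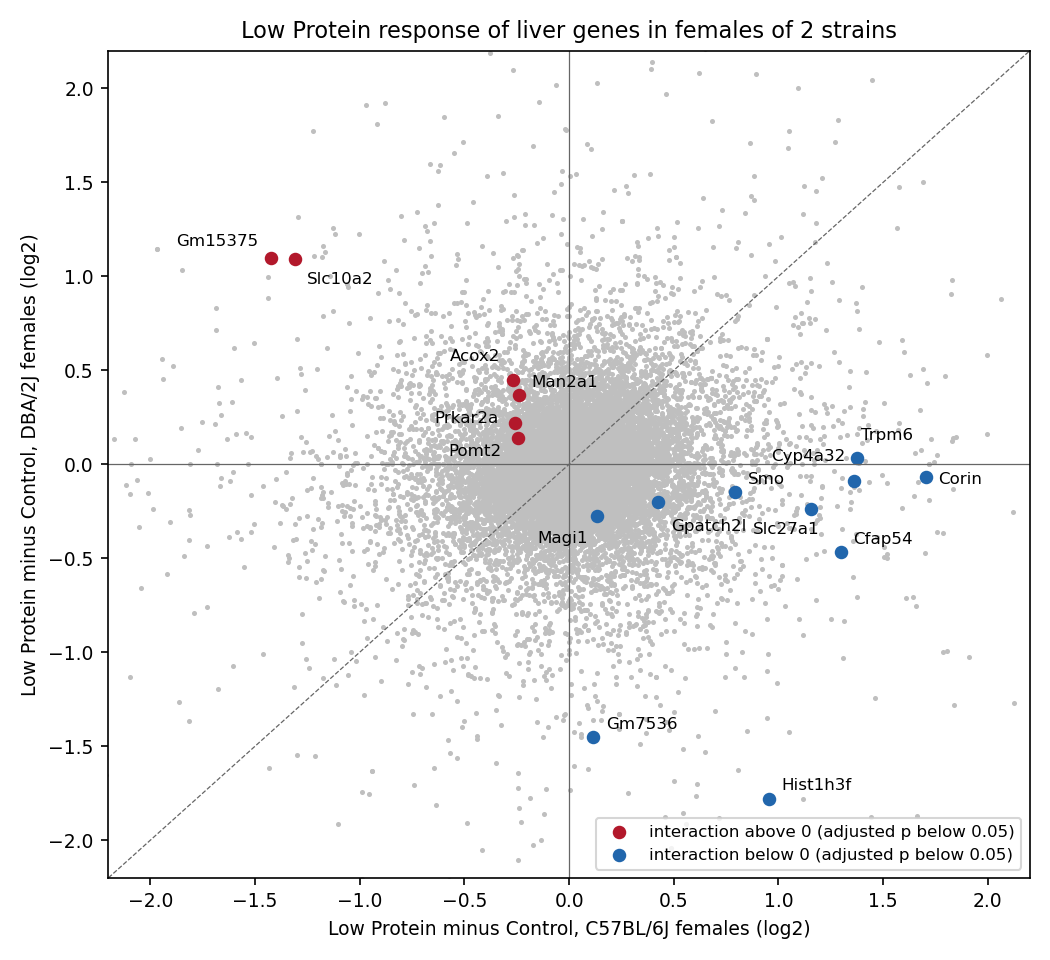
Low Protein minus Control in C57BL/6J females (horizontal axis, log2) against the same in DBA/2J females (vertical axis, log2), with 1 grey point per gene tested. Coloured points are genes called in the interaction; the dashed line marks equal responses, 169 genes beyond 2.2 on either axis are not drawn, and Igflr1 and Gm12481, which were at or near 0 counts in whole groups, are left out. Called genes lie in the upper left or lower right of the plot, except Trpm6 just above the horizontal line. They were chosen by the difference between the 2 axes, which favours these corners.

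Slc10a2 and Acox2, which carry or make bile acids, are described together although no list tested here holds both. Slc10a2 encodes the apical sodium-dependent bile acid transporter, which takes bile acids back up in the ileum and in bile duct cells. Levels in C57BL/6J ran from 3.24 to 10.7 CPM on Control (median 4.83) and from 0.847 to 4.37 CPM on Low Protein (median 1.85). Levels in DBA/2J ran from 2.72 to 5.33 CPM on Control (median 3.84) and from 6.13 to 11.4 CPM on Low Protein (median 7.80). The diet groups overlapped in C57BL/6J and did not overlap in DBA/2J. Slc10a2 fell in C57BL/6J (log2 change -1.31 ± 0.31 SE, adjusted p = 0.00899), and its estimate in DBA/2J was 1.09 ± 0.30 (adjusted p = 0.0546). The interaction was 2.41 ± 0.43 (adjusted p = 0.00446), and without C57BL/6J Control replicate 1, the library with the highest Control value, it was 2.12 (adjusted p = 0.0142).

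Because bile duct cells also carry Slc10a2, their markers are given beside it. The 14 cholangiocyte markers summed to between 78.6 and 111 CPM on Control and between 81.4 and 142 CPM on Low Protein in C57BL/6J, and to between 59.1 and 74.0 CPM and between 60.5 and 68.0 CPM in DBA/2J. None was at 0 in all 24 libraries. Of the 12 tested, 1 had an interaction above 0 and none was called. Their median was -0.41 (-0.21 without C57BL/6J Low Protein replicate 4). The part of these cells in the change of Slc10a2 was not tested. In bulk tissue, a smaller number of cells of a type cannot be told apart from less RNA in each cell.

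Acox2 encodes the peroxisomal oxidase that shortens the side chain of bile acid precursors and branched-chain fatty acids. Its levels in C57BL/6J were 137 to 184 CPM on Control (median 171) and 106 to 174 CPM on Low Protein (median 136). In DBA/2J they were 137 to 190 CPM (median 177) and 201 to 278 CPM (median 234). Only in DBA/2J were the diet groups without overlap. Acox2 rose there (0.45 ± 0.11, adjusted p = 0.0160), and in C57BL/6J its estimate was -0.27 ± 0.11 (adjusted p = 0.155). The interaction of 0.72 ± 0.15 (adjusted p = 0.0173) was no longer called without DBA/2J Control replicate 5 (adjusted p = 0.0562) or DBA/2J Low Protein replicate 4 (adjusted p = 0.0597).

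The list of bile acid genes did not hold Slc10a2. Of its 28 genes tested, Acox2 was the only call, 17 had an interaction above 0, and the median was 0.10 (0.18 without C57BL/6J Control replicate 1). Over all genes tested 49.4% were above 0 and the median was -0.0033. Amacr, the racemase that acts just before Acox2 in the same pathway, had an interaction of opposite sign that missed the threshold (-0.40 ± 0.09, adjusted p = 0.0519). Its C57BL/6J libraries did not overlap between diets, at 71.5 to 86.4 CPM (median 76.5) on Control and 88.2 to 94.5 CPM (median 90.4) on Low Protein. In DBA/2J they overlapped, at 80.2 to 95.9 CPM (median 90.4) and 68.3 to 91.4 CPM (median 78.0). Cyp7a1, which sets the pace of the classic bile acid pathway, had an interaction of -0.38 ± 0.63 (adjusted p = 0.882).

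Slc27a1 and Cyp4a32 handle fatty acids, and both rose on Low Protein in C57BL/6J. Slc27a1 encodes FATP1, a fatty acid transport protein. Its C57BL/6J libraries ran from 11.8 to 29.2 CPM on Control (median 20.9) and from 23.4 to 57.9 CPM on Low Protein (median 50.9), overlapping through Low Protein replicate 1 alone. Its DBA/2J libraries ran from 5.01 to 10.4 CPM (median 6.51) and from 5.09 to 6.28 CPM (median 6.08). The change was 1.16 ± 0.18 in C57BL/6J (adjusted p = 7.5e-05) and -0.24 ± 0.19 in DBA/2J (adjusted p = 0.719), with an interaction of -1.39 ± 0.26 (adjusted p = 0.0054).

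Markers of fat cells are given beside these genes. The 8 adipocyte markers summed to between 27.5 and 61.2 CPM on Control (median 32.9) and between 35.0 and 83.3 CPM on Low Protein (median 60.6) in C57BL/6J. The sums in DBA/2J were between 15.0 and 19.1 CPM (median 15.8) and between 14.6 and 21.9 CPM (median 17.7). Lep had no count in the 24 libraries, and Adipoq, Plin1 and Retn did not pass the filter on low counts. Of the 4 tested (Cfd, Fabp4, Cidec and Lipe) none was called in either strain, with a median change of 0.63 in C57BL/6J and -0.03 in DBA/2J. Their part in the changes of Slc27a1 and Cyp4a32 was not tested.

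Cyp4a32 encodes an omega-hydroxylase of fatty acids from the PPARA-responsive Cyp4a family, whose members are close copies, so that reads may be divided between them. C57BL/6J levels ran from 17.4 to 51.9 CPM on Control (median 25.9) and from 52.8 to 124 CPM on Low Protein (median 64.6), with no overlap. In DBA/2J it was far higher on either diet, from 284 to 426 CPM (median 380) and from 282 to 540 CPM (median 309), with overlap. The change was 1.36 ± 0.22 in C57BL/6J (adjusted p = 7.5e-05) and -0.09 ± 0.21 in DBA/2J (adjusted p = 0.934). The interaction was -1.45 ± 0.30 (adjusted p = 0.0173), and -1.24 without C57BL/6J Low Protein replicate 1 (adjusted p = 0.0519).

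Cyp4a32 was the only call among the 40 tested genes that oxidise fatty acids or are PPARA targets, a list that did not hold Slc27a1. Of these, 7 had an interaction above 0 and the median was -0.15. Leaving out a library put between 3 and 15 of them above 0, and the median was -0.07 without C57BL/6J Control replicate 1. The median Low Protein change of the list was 0.15 in C57BL/6J and -0.05 in DBA/2J. Ucp2, an inner mitochondrial membrane carrier, came next by p in this list. It rose in C57BL/6J (1.31, adjusted p = 5.8e-06), where Control libraries lay between 13.8 and 27.6 CPM (median 22.2) and Low Protein libraries between 40.3 and 60.7 CPM (median 54.8). In DBA/2J the ranges overlapped, at 17.2 to 29.9 CPM (median 19.8) and 21.8 to 37.0 CPM (median 26.2), and its interaction was -1.03 ± 0.25 (adjusted p = 0.0682). Without C57BL/6J Control replicate 1 that adjusted p was 0.0388. Acaa1b, a peroxisomal thiolase, had an interaction of -1.0 ± 0.28 (adjusted p = 0.121).

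**Figure D2:**
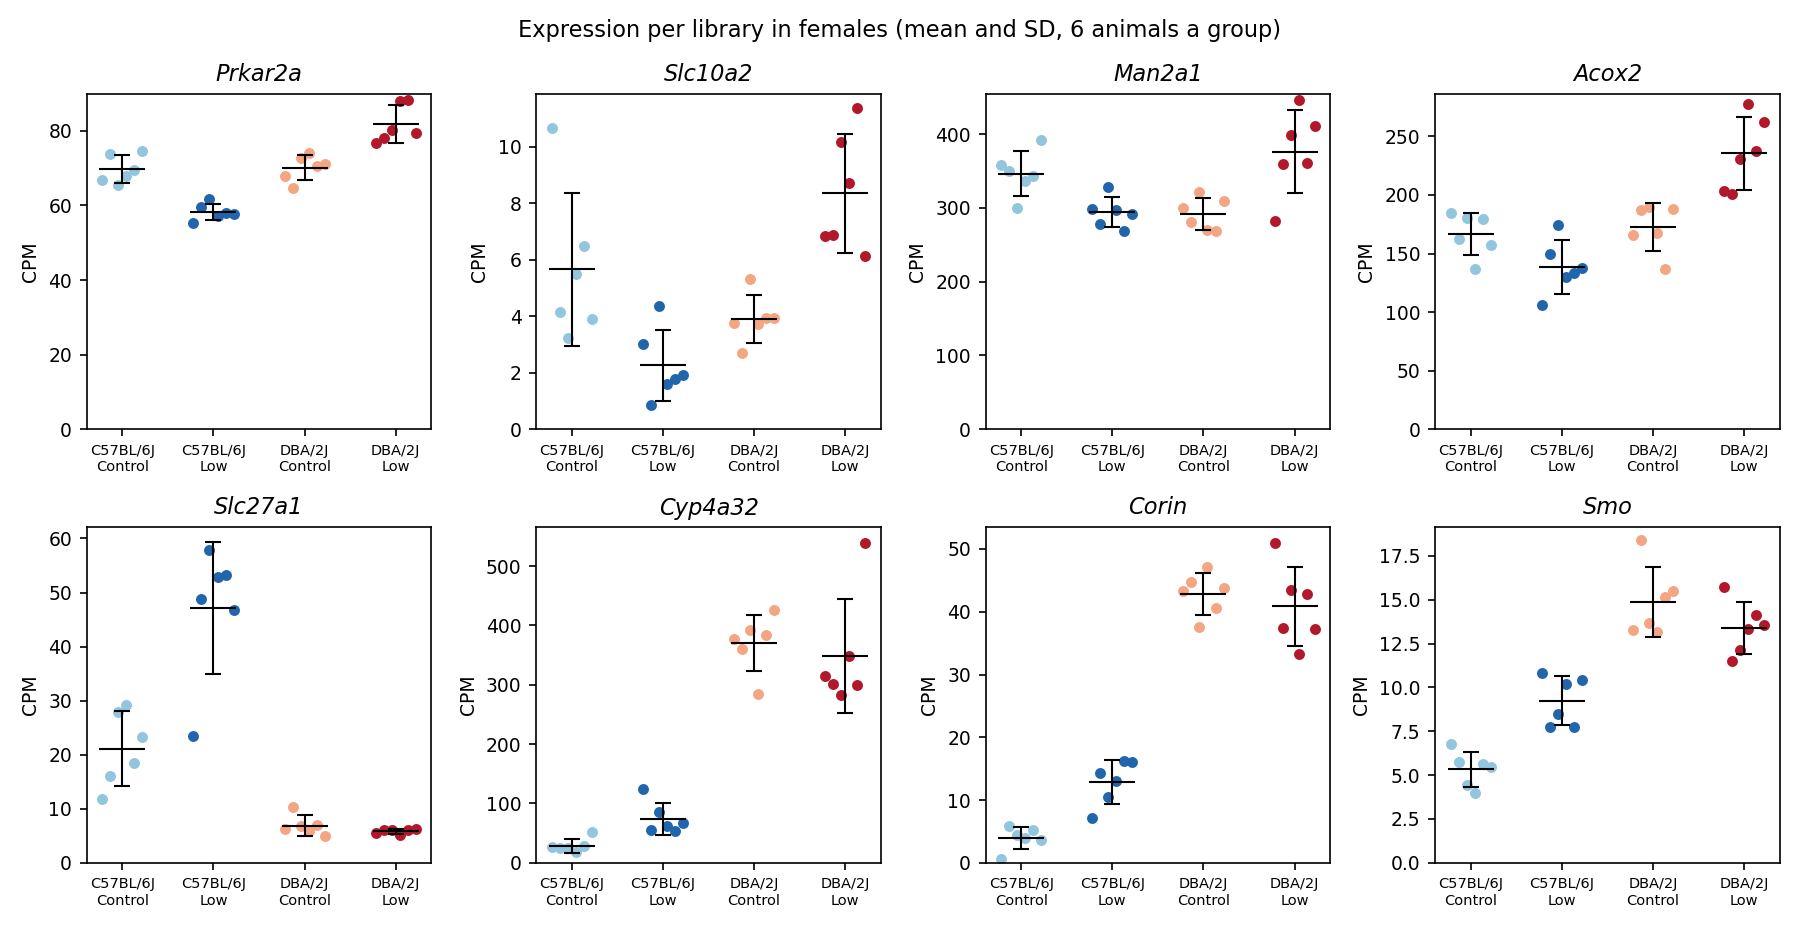
CPM of 8 called genes in each library of the 4 female groups; points are libraries, the wide bar is the mean and the error bar the SD over 6 libraries, and each vertical axis starts at 0. The upper row holds genes with an interaction above 0 and the lower row genes with an interaction below 0: in the lower row the diet groups separate mainly in C57BL/6J.

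Prkar2a encodes the RII-alpha regulatory subunit of protein kinase A, the kinase through which cyclic AMP acts, glucagon signalling included. The C57BL/6J libraries ran from 65.4 to 74.5 CPM on Control (median 68.8) and from 55.3 to 61.8 CPM on Low Protein (median 57.8). DBA/2J levels ran from 64.6 to 74.0 CPM (median 70.9) and from 76.6 to 88.4 CPM (median 79.9). The diet groups did not overlap in either strain, and Prkar2a was the only one of the 18 genes of which this was true. It fell in C57BL/6J (-0.26 ± 0.05, adjusted p = 0.00107) and rose in DBA/2J (0.22 ± 0.05, adjusted p = 0.0110). The interaction of 0.48 ± 0.07 had the smallest adjusted p of all genes, 9.44e-05, although the change was small in size. It was not called with scaling by library totals (0.44, adjusted p = 0.0650) or in a test against a fold of 1.2 (adjusted p = 0.272).

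Smo encodes Smoothened, the transducer of Hedgehog signals. Levels in C57BL/6J ran from 4.00 to 6.78 CPM on Control (median 5.53) and from 7.74 to 10.8 CPM on Low Protein (median 9.36), with no overlap. The DBA/2J libraries ran from 13.1 to 18.4 CPM (median 14.4) and from 11.5 to 15.7 CPM (median 13.4), with overlap. Smo rose in C57BL/6J (0.79 ± 0.13, adjusted p = 0.000107), its DBA/2J estimate was -0.15 ± 0.13 (adjusted p = 0.738), and the interaction was -0.94 ± 0.18 (adjusted p = 0.00738).

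Corin encodes a membrane serine protease that activates atrial natriuretic peptide, mainly in the heart. Its C57BL/6J libraries ran from 0.646 to 5.82 CPM on Control (median 4.15) and from 7.18 to 16.1 CPM on Low Protein (median 13.7), with no overlap. In DBA/2J it was higher on either diet, from 37.6 to 47.1 CPM (median 43.6) and from 33.3 to 51.0 CPM (median 40.1). It rose in C57BL/6J (1.70 ± 0.28, adjusted p = 9.43e-05) but its DBA/2J estimate was -0.07 ± 0.25 (adjusted p = 0.962). The interaction of -1.77 ± 0.38 (adjusted p = 0.0197) was no longer called without C57BL/6J Low Protein replicate 5 (adjusted p = 0.05, at the threshold) or without DBA/2J Low Protein replicate 4 (adjusted p = 0.0597).

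Trpm6, a magnesium-permeable channel with a kinase domain, ran in C57BL/6J from 0.352 to 1.28 CPM on Control (median 0.901) and from 1.80 to 2.83 CPM on Low Protein (median 2.05). Levels in DBA/2J ran from 3.17 to 6.52 CPM (median 3.47) and from 3.47 to 5.46 CPM (median 3.77). Only the C57BL/6J groups were without overlap. Its interaction was -1.34 ± 0.30 (adjusted p = 0.0382), with a rise in C57BL/6J of 1.37 ± 0.22 (adjusted p = 7.5e-05). The call held in 13 of the 24 fits that left out a library, and the adjusted p reached 0.133 without DBA/2J Control replicate 5. The other libraries whose removal ended it were C57BL/6J Control replicates 2 and 6, C57BL/6J Low Protein replicates 2, 4 and 5, DBA/2J Control replicate 4 and DBA/2J Low Protein replicates 2, 3, 4 and 6. Magi1, a scaffold protein of cell junctions, moved in the other strain. It ran in C57BL/6J from 30.6 to 38.2 CPM (median 32.8) on Control and from 31.3 to 40.2 CPM (median 37.5) on Low Protein, and in DBA/2J from 43.5 to 48.2 CPM (median 46.1) and from 34.6 to 45.5 CPM (median 37.0). The diet groups overlapped in both strains. Magi1 fell in DBA/2J (-0.28 ± 0.06, adjusted p = 0.00598), with an interaction of -0.41 ± 0.08 (adjusted p = 0.0166). The Magi1 call was lost with no filter (adjusted p = 0.0792), with the compared groups only (0.150), with female libraries only (0.0593), against a fold of 1.2 (0.723) and without the 2 libraries with most genes detected (0.101).

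Man2a1 and Pomt2 act on protein-bound sugars. Man2a1, the Golgi alpha-mannosidase II that trims N-glycans, ran in C57BL/6J from 299 to 392 CPM on Control (median 346) and from 269 to 328 CPM on Low Protein (median 294). DBA/2J levels ran from 268 to 322 CPM (median 290) and from 282 to 446 CPM (median 380). Diet groups overlapped in both strains. Man2a1 rose in DBA/2J (0.37 ± 0.08, adjusted p = 0.0079), its C57BL/6J estimate was -0.24 ± 0.08 (adjusted p = 0.0861), and the interaction was 0.61 ± 0.11 (adjusted p = 0.0054). Pomt2, which starts O-mannosylation of proteins, ran in C57BL/6J from 18.4 to 22.0 CPM (median 19.7) on Control and from 15.4 to 18.5 CPM (median 16.4) on Low Protein. The DBA/2J libraries ran from 18.5 to 22.3 CPM (median 20.8) and from 19.7 to 26.8 CPM (median 22.5). It fell in C57BL/6J (-0.24 ± 0.06, adjusted p = 0.0105), with an interaction of 0.38 ± 0.08 (adjusted p = 0.0231). The Pomt2 call was lost in 7 of the 24 fits that left out a library, with the adjusted p reaching 0.0889 without DBA/2J Low Protein replicate 4. The other 6 left out C57BL/6J Control replicate 2 or 4, C57BL/6J Low Protein replicate 1 or 4, DBA/2J Control replicate 5 or DBA/2J Low Protein replicate 6.

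Cfap54 and Gpatch2l also rose in C57BL/6J. Cfap54, a protein of motile cilia, ran there from 2.41 to 4.02 CPM on Control (median 3.38) and from 5.90 to 10.3 CPM on Low Protein (median 8.22). Levels in DBA/2J ran from 1.2 to 3.30 CPM (median 1.76) and from 0.837 to 1.93 CPM (median 1.37). The C57BL/6J groups did not overlap, and the interaction was -1.77 ± 0.34 (adjusted p = 0.0057). Gpatch2l ran in C57BL/6J from 14.9 to 22.3 CPM (median 17.1) and from 22.8 to 25.7 CPM (median 23.7), again without overlap. DBA/2J levels ran from 16.2 to 19.9 CPM (median 17.6) and from 12.6 to 18.7 CPM (median 15.0). Its interaction was -0.63 ± 0.13 (adjusted p = 0.0197), and the adjusted p was 0.0557 without DBA/2J Control replicate 2 and 0.0618 without DBA/2J Low Protein replicate 5.

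The other 5 calls are predicted genes or genes of low level and were named after their values were seen. Gm7536 ran in C57BL/6J from 12.0 to 20.6 CPM (median 13.5) on Control and from 11.6 to 19.7 CPM (median 15.4) on Low Protein. In DBA/2J it fell from between 12.6 and 31.2 CPM (median 22.2) to between 5.23 and 9.83 CPM (median 7.92), without overlap (adjusted p = 2.34e-05), and its interaction was -1.57 ± 0.29 (adjusted p = 0.00446). Gm15375 was at 0.499 to 2.41 CPM (median 1.75) and 0.147 to 0.960 CPM (median 0.571) in C57BL/6J, and at 2.06 to 5.38 CPM (median 3.16) and 4.41 to 9.09 CPM (median 7.65) in DBA/2J. The interaction of Gm15375 was 2.52 ± 0.52 (adjusted p = 0.0169). Gm12481 was at most 0.233 CPM in DBA/2J on Low Protein and 1.35 to 5.63 CPM (median 3.50) in DBA/2J on Control, while in C57BL/6J it was at 0 to 2.65 CPM (median 1.52) and 1.90 to 3.05 CPM (median 2.73). Its interaction (adjusted p = 0.0197) was no longer called without DBA/2J Low Protein replicate 4 (adjusted p = 0.0604) or 6 (adjusted p = 0.0580).

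Igflr1, a receptor of the IGF-like family, had no count in any C57BL/6J Control or any DBA/2J Low Protein library. It had 58 counts over the C57BL/6J Low Protein libraries and 67 over the DBA/2J Control libraries. Against a floor of 3 counts over a group of 6 libraries it was at least 19.7-fold higher on Low Protein in C57BL/6J. In DBA/2J it was at least 21.8-fold lower (adjusted p of the interaction 0.0180). These bounds cover counting error only and not the spread between libraries, which was wide for this gene. DBA/2J Control libraries ran from 0 to 26 counts. In C57BL/6J males the libraries ran from 0 to 17 counts on Control and from 0 to 22 on Low Protein. Hist1h3f, a replication-dependent histone gene whose messages lack a poly(A) tail, stayed below 1 CPM: its medians were 0.243 and 0.421 CPM in C57BL/6J and 0.274 and 0.0734 CPM in DBA/2J, with overlap in both strains. Its call (adjusted p = 0.0463) held in 10 of the 24 fits that left out a library, and the adjusted p reached 0.127 without DBA/2J Control replicate 2. It also ended without C57BL/6J Control replicate 2, 4, 5 or 6, C57BL/6J Low Protein replicate 2, 4 or 5, DBA/2J Control replicate 1 or 5, and DBA/2J Low Protein replicate 2, 4, 5 or 6. Reads of the histone gene copies may be divided between them. Olfr1033, an olfactory receptor gene just outside the threshold (adjusted p = 0.0519), was at 8.10 to 13.9 CPM (median 8.95) and 5.18 to 8.01 CPM (median 6.49) in C57BL/6J. The DBA/2J libraries were at 0 on Control and at no more than 0.378 CPM on Low Protein.

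The response was also tested within each strain. C57BL/6J females had 629 calls for Low Protein against Control (3.25% of genes), 284 higher (1.47%) and 345 lower (1.78%), and DBA/2J females had 158 (0.816%), 118 higher (0.609%) and 40 lower (0.207%). With scaling by library totals the DBA/2J calls were 39 higher and 30 lower. Both numbers moved with single libraries: the first was 322 without Control replicate 4, and the second was 74, 96 and 100 without Low Protein replicates 4, 3 and 6, and 81, 91 and 238 without Control replicates 2, 5 and 3. Of the 18 interaction genes, 11 were called in C57BL/6J alone, 6 in DBA/2J alone and Prkar2a in both. These counts use the same libraries as the interaction and are a description. Low Protein and Control libraries were without overlap for 7 of the 18 in C57BL/6J and for 5 in DBA/2J, against 1.35% and 1.23% of all genes.

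Genes called in both strains numbered 13, and Prkar2a was the one with opposite signs. The 11 called higher in both were 3.87% of the C57BL/6J genes called higher, beside 0.609% of all genes called higher in DBA/2J. They were 9.32% of the DBA/2J genes called higher, beside 1.47% of all genes called higher in C57BL/6J. Setbp1 was the single gene called lower in both. Of C57BL/6J calls, 200 of 284 higher and 254 of 345 lower had the same sign in DBA/2J. Of DBA/2J calls, 94 of 118 higher and 21 of 40 lower had the same sign in C57BL/6J. These shares of signs were not counted over all genes. Cyp3a11, a main drug- and steroid-metabolising cytochrome P450 of mouse liver, was one of the 11. It rose by 1.11 in C57BL/6J (adjusted p = 0.00169) and by 1.33 in DBA/2J (adjusted p = 0.000351), and its interaction was 0.22 ± 0.32 (adjusted p = 0.865). Dgat1 and Mfn2 were also among the 11 and were picked after their values were seen. Dgat1, which makes triglyceride, rose by 0.25 and 0.29, and Mfn2, a mitochondrial fusion protein, by 0.51 and 0.36. Sult1e1, the estrogen sulfotransferase, fell in C57BL/6J by 4.60 (adjusted p = 0.000492), from between 1.92 and 15.2 CPM (median 5.97) to between 0.0978 and 0.948 CPM (median 0.159). In DBA/2J its estimate was -1.91 (adjusted p = 0.166), with 4.91 to 16.4 CPM (median 12.1) on Control and 0.457 to 4.90 CPM (median 3.62) on Low Protein. The diet groups of Sult1e1 did not overlap in either strain, in DBA/2J by a narrow margin (4.9125 against 4.8967 CPM). Its interaction was 2.70 ± 1.06 (adjusted p = 0.289).

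Serpina12 and Elovl3 were each called in 1 strain only, and neither was called in the interaction. Serpina12, which encodes the secreted protein vaspin, rose in DBA/2J (1.85 ± 0.38, adjusted p = 0.00461), from between 4.60 and 13.1 CPM (median 7.10) to between 16.4 and 48.5 CPM (median 25.8). C57BL/6J levels were at 0.323 to 7.02 CPM (median 1.85) and 1.04 to 3.15 CPM (median 1.68), and the interaction was 2.19 ± 0.59 (adjusted p = 0.100, and 0.0345 without C57BL/6J Control replicate 1). Elovl3, a fatty acid elongase, rose in C57BL/6J (2.83 ± 0.46, adjusted p = 7.5e-05), from between 0.0294 and 2.16 CPM (median 1.31) to between 7.14 and 13.8 CPM (median 7.87). Levels in DBA/2J were at 2.19 to 6.91 CPM (median 3.15) and 4.47 to 8.90 CPM (median 6.17), and the interaction was -2.08 ± 0.62 (adjusted p = 0.133). Osgin1, a gene of the oxidative stress response, fell in DBA/2J by 1.74 (adjusted p = 0.00572), with an interaction of -0.76 ± 0.52 (adjusted p = 0.622).

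Where the strains stood on each diet was compared for the same 18 genes, with shared libraries, so the values are set side by side without a further test. On Control, 27.8% of all genes differed between DBA/2J and C57BL/6J females, and 11 of the 18 did. On Low Protein, 33.1% of all genes differed, and 17 of the 18 did. The gap between strains was wider on Low Protein in 12 of the 18. Prkar2a, Acox2, Pomt2 and Gpatch2l had nearly equal levels on Control, with log2 strain differences of 0.01, 0.05, 0.05 and -0.02, and stood apart on Low Protein at 0.49, 0.77, 0.44 and -0.64. The gap of Slc27a1 widened from -1.62 to -3.01. For Magi1 it closed from 0.46 to 0.05, and for Smo, Corin, Cyp4a32 and Trpm6, which were higher in DBA/2J on Control, it narrowed, for Corin from 3.44 to 1.66.

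**Figure D3:**
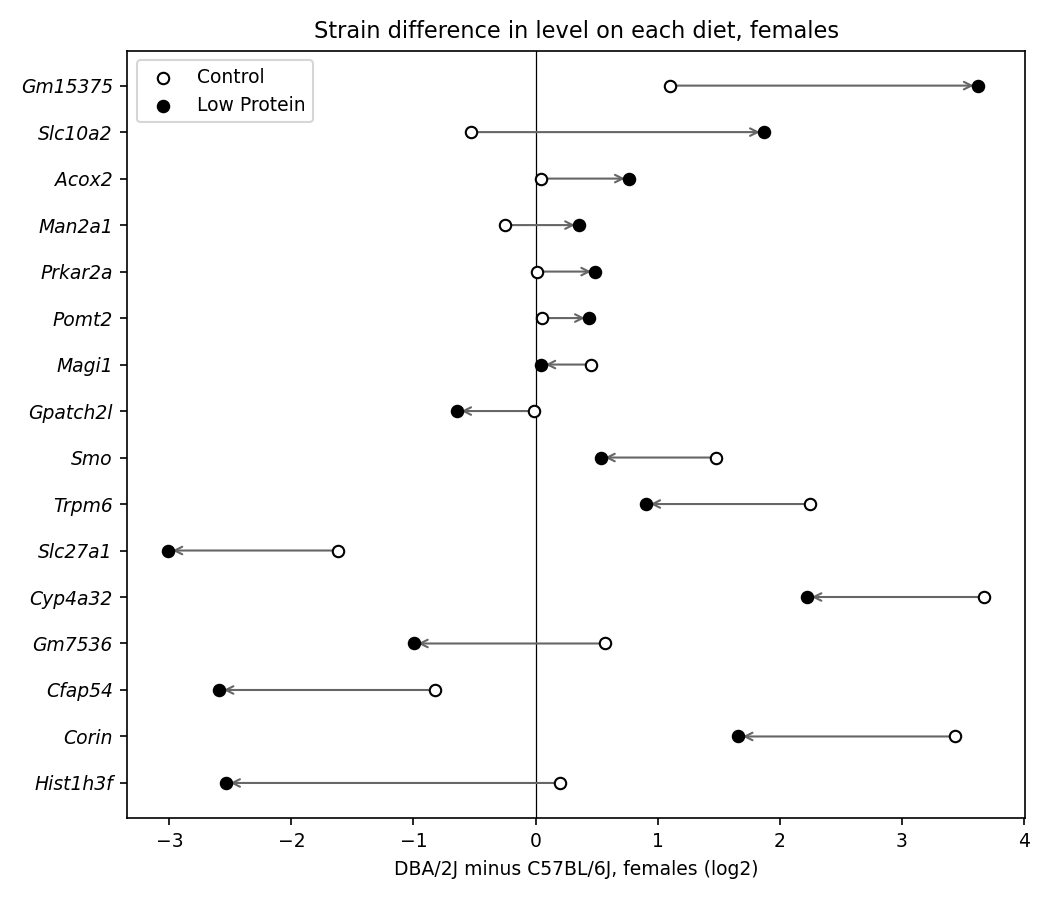
DBA/2J minus C57BL/6J in females (log2) on Control (open points) and on Low Protein (filled points) for 16 called genes, with an arrow from Control to Low Protein. Igflr1 and Gm12481 are left out; Prkar2a, Acox2, Pomt2 and Gpatch2l start near 0 and move away, while Magi1 moves to 0.05.

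Genes that mark the response to low amino acids gave no call in the interaction. None of the 34 genes of the ATF4 and integrated stress list was called, 17 had an interaction above 0 and the median was 0.0053. The median was -0.17 without C57BL/6J Control replicate 1. Within C57BL/6J, 1 gene of the list was called higher and 1 lower (1.47% and 1.78% of all genes were). Within DBA/2J none was called. Asns, the asparagine synthetase that ATF4 induces, was at 0 to 7.43 CPM (median 0.256) on Control and 1.32 to 8.36 CPM (median 2.62) on Low Protein in C57BL/6J. DBA/2J levels stayed between 0 and 0.152 CPM on either diet, and the interaction had an adjusted p of 0.725. The authors' own comparisons gave Asns a log2 change of 3.35 in C57BL/6J (authors' adjusted p = 0.0112). In DBA/2J they gave -0.68 (authors' adjusted p = 0.930). Fgf21, a liver hormone raised by protein restriction, ran in C57BL/6J from 5.45 to 16.9 CPM (median 12.0) and from 6.87 to 17.2 CPM (median 13.5). The DBA/2J libraries ran from 5.73 to 21.4 CPM (median 17.9) and from 5.36 to 18.6 CPM (median 10.1), and the interaction was -0.77 ± 0.55 (adjusted p = 0.651). Igf1, the main circulating growth factor made by liver, had an interaction of 0.23 ± 0.15 (adjusted p = 0.603), and Igfbp2, one of its binding proteins, of -1.03 ± 0.31 (adjusted p = 0.133). The interactions of Igfbp1, Pdk4 and Lepr, which respond to fasting, were -1.18 ± 0.83, -0.69 ± 0.66 and -0.56 ± 0.58, with adjusted p of 0.642, 0.768 and 0.788.

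None of the 12 genes of the urea cycle and ammonia was called in the interaction, 10 were above 0 and 5 had an unadjusted p below 0.05, all higher (5.51% of all genes). Their median was 0.41. In DBA/2J females 5 of them rose (0.609% of all genes did) and in C57BL/6J females 1 fell (1.78% of all genes did). Arg1, which splits arginine into urea and ornithine, ran in DBA/2J from 538 to 794 CPM on Control (median 631) and from 691 to 1623 CPM on Low Protein (median 1066), a rise of 0.77 ± 0.17 (adjusted p = 0.00927). The C57BL/6J libraries ran from 893 to 1432 CPM (median 1061) and from 965 to 1564.5 CPM (median 1099.7), and the interaction was 0.66 ± 0.24 (adjusted p = 0.238). Ass1, Asl and Cps1 also rose in DBA/2J, by 0.79, 0.93 and 0.72, with interactions of 0.80, 0.67 and 0.48 that were not called. Otc, the mitochondrial enzyme that makes citrulline, had an interaction of 0.20 ± 0.15 (adjusted p = 0.691). Gls2, the liver glutaminase, fell in C57BL/6J by 0.58 (adjusted p = 0.0249), with an interaction of 0.60 ± 0.22 (adjusted p = 0.249).

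Amino acid catabolism showed 44 of 54 genes above 0 (49.4% of all genes were), a median of 0.16 and no call. The median was 0.26 without C57BL/6J Low Protein replicate 3. Gpt2, an alanine aminotransferase, rose in DBA/2J by 0.81 (adjusted p = 0.00398), from between 155 and 260 CPM (median 240) to between 227 and 550 CPM (median 429). Levels in C57BL/6J were at 456 to 748 CPM (median 618) and 474 to 632 CPM (median 563), and the interaction was 0.93 ± 0.23 (adjusted p = 0.0763). Both pathway lists leaned the same way in males, with medians of 0.62 and 0.52.

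All 25 cholesterol synthesis genes tested had an interaction above 0 (49.4% of all genes did). Of these, 7 had an unadjusted p below 0.05 (5.51% of all genes had one with an interaction above 0), and none was called. Their median was 0.47, from a median change of -0.32 in C57BL/6J and 0.22 in DBA/2J. Leaving out a library gave medians between 0.38 and 0.69 and between 22 and 25 genes above 0. Insig1, which restrains the pathway and is itself induced with it, had an interaction of 1.14 ± 0.41 (adjusted p = 0.233). Tm7sf2, a sterol reductase, had one of 0.78 ± 0.25 (adjusted p = 0.177), and without C57BL/6J Control replicate 1 it was called (0.96, adjusted p = 0.0245). In the separate male animals the list's median was 0.91.

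The lists below held no call in the interaction, and 49.4% of all genes had an interaction above 0. The median of 50 xenobiotic metabolism genes was 0.27, with 37 above 0, and that of 21 clock genes was 0.37, with 17 above 0. Ces2a, a carboxylesterase, rose in DBA/2J by 0.77 (adjusted p = 0.000265), with diet groups of 103 to 147 CPM (median 130) and 180 to 263 CPM (median 225) that did not overlap. C57BL/6J levels ran from 65.4 to 99.9 CPM (median 86.5) and from 51.5 to 111 CPM (median 95.5), and the interaction was 0.66 ± 0.18 (adjusted p = 0.102). Male-biased liver genes had a median of 0.34, with 26 of 39 above 0. Female-biased liver genes leaned the same way, with a median of 0.21 and 29 of 43 above 0. The female-biased median was 0.14 without C57BL/6J Low Protein replicate 1 and 0.35 without C57BL/6J Control replicate 1. Among the female-biased genes Cyp3a41b, which has close copies, fell in C57BL/6J by 3.32 (adjusted p = 0.00128). It went from 0.646 to 170 CPM (median 54.7) on Control to 0.53 to 17.9 CPM (median 7.55) on Low Protein. Levels in DBA/2J lay between 150 and 407 CPM on either diet. Its interaction of 3.16 ± 0.84 (adjusted p = 0.100) was called without C57BL/6J Control replicate 1 (3.42, adjusted p = 0.0245).

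The medians of some lists rested on single libraries. That of 36 acute phase genes was -0.23, and 0.16 without C57BL/6J Low Protein replicate 1. Orm2, an acute phase protein, reached 818 CPM in that group against a group median of 4.67 CPM, and its interaction went from -4.80 to 0.09 without that library. The 25 cell cycle genes had a median of 0.48, and of -0.18 without C57BL/6J Control replicate 1. The list of replication-dependent histone genes did not hold Hist1h3f, which was called. Its 19 genes tested all had an interaction below 0, with a median of -1.08. Without DBA/2J Control replicate 2 it was -0.48. In males it was 1.06. Macrophage markers (21 genes) had a median of -0.06, of 0.38 without C57BL/6J Low Protein replicate 1 and of -0.23 without C57BL/6J Control replicate 3. Their part in the results above was not tested.

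**Figure D4:**
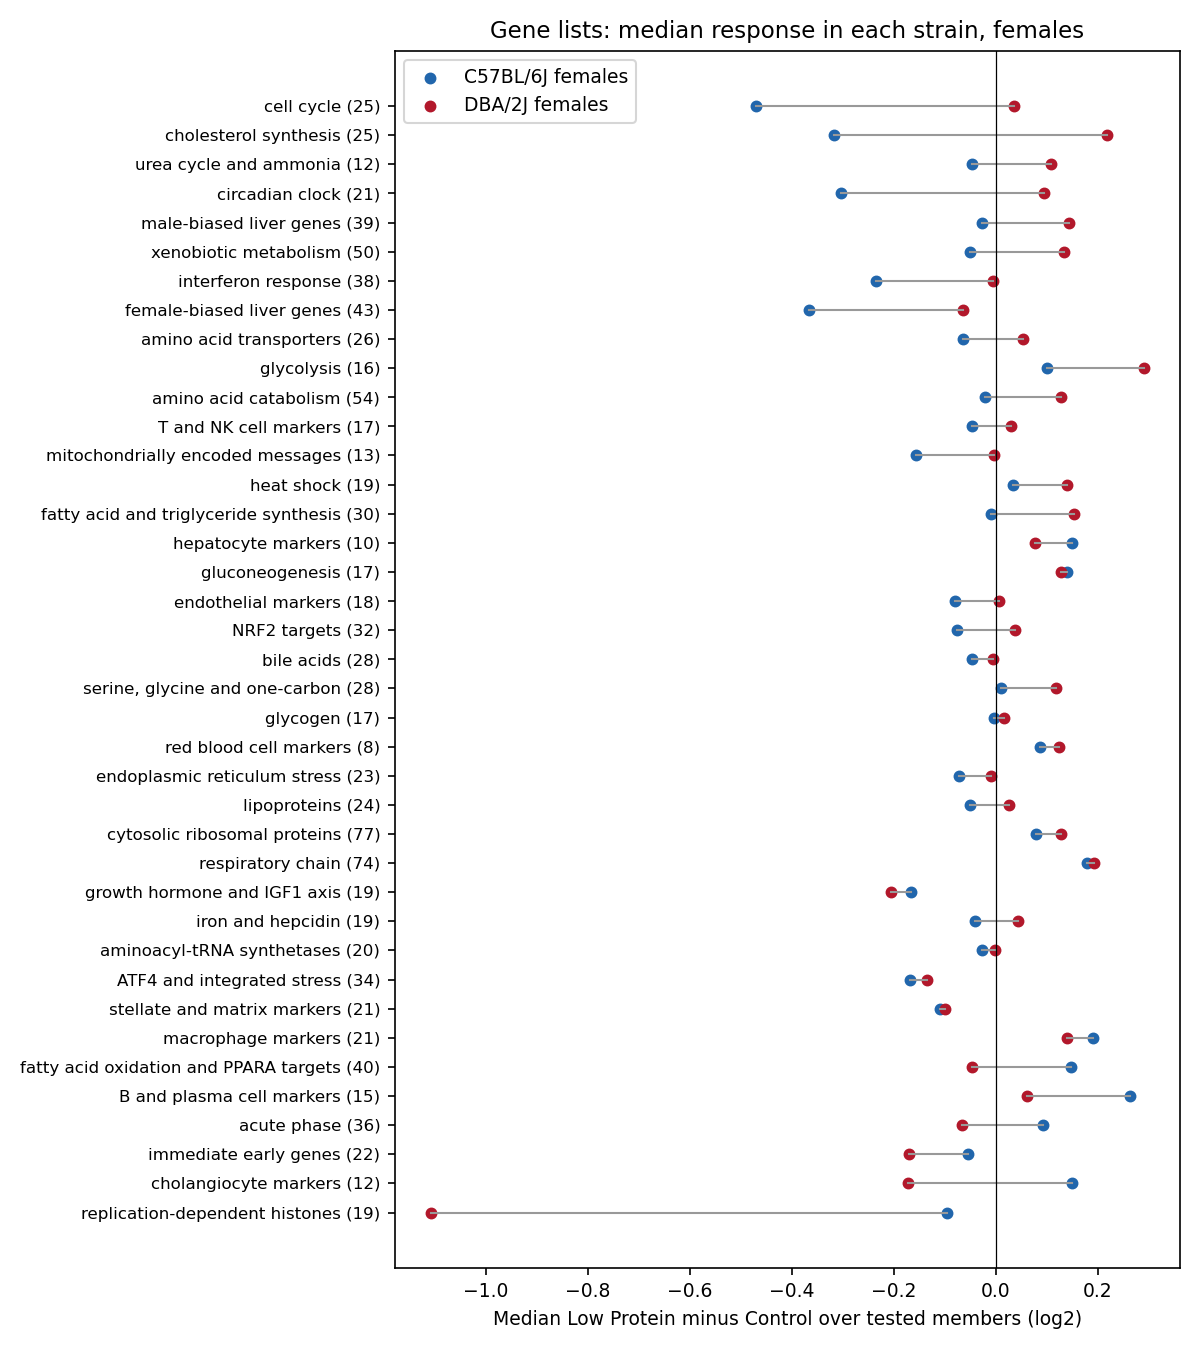
Median Low Protein minus Control change (log2) over the tested members of each gene list with at least 8 members tested, in C57BL/6J females (blue) and DBA/2J females (red), ordered by the median interaction; the number of genes tested is in parentheses. Cholesterol synthesis runs from -0.32 to 0.22 and urea cycle and ammonia from -0.05 to 0.11, while acute phase, cell cycle and histone medians rest in part on single libraries.

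Male mice of the same strains and diets share no library with the female comparison. There the strain interaction had 558 calls (2.88% of genes), and between 323 and 624 when a library was left out. It was 323 without C57BL/6J Low Protein replicate 5, 345 without DBA/2J Control replicate 6, 355 without DBA/2J Low Protein replicate 1 or 4, and 367 without C57BL/6J Control replicate 5. Of the 18 female genes, 15 had the same sign in males, a share that was not counted over all genes. In males 7 had an unadjusted p below 0.05 (16.6% of all genes did) and 2 were called, Prkar2a and Corin. The 18 were chosen by their female values, and that choice alone favours larger estimates in females than in males. For Prkar2a the male interaction was 0.24 ± 0.07 (adjusted p = 0.0479). For Corin it was -1.87 ± 0.45 (adjusted p = 0.0106), the only one of the 18 that was larger in males. For Slc10a2 it was 0.10 ± 0.40 (adjusted p = 0.943), and the female minus male difference of 2.30 ± 0.59 did not pass (adjusted p = 0.0526). For Cyp4a32 it was -0.90 ± 0.30 (adjusted p = 0.0859).

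The difference between the female and male interactions was called for 78 genes (0.403%), and from 24 without DBA/2J female Control replicate 2 to 235 without C57BL/6J female Control replicate 3. The 18 genes contributed 2 of these calls. Magi1 had interactions of -0.41 in females and 0.16 in males, which differed by -0.57 ± 0.12 (adjusted p = 0.0139). Hist1h3f had -2.73 and 1.22, which differed by -3.96 ± 0.88 (adjusted p = 0.0210). Psat1, of serine synthesis, Asns and Fgf21 were called in the male interaction (-4.29, -4.18 and -2.33) and not in the female one, but their female minus male differences did not pass (adjusted p = 0.0879, 0.602 and 0.350).

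**Figure D5:**
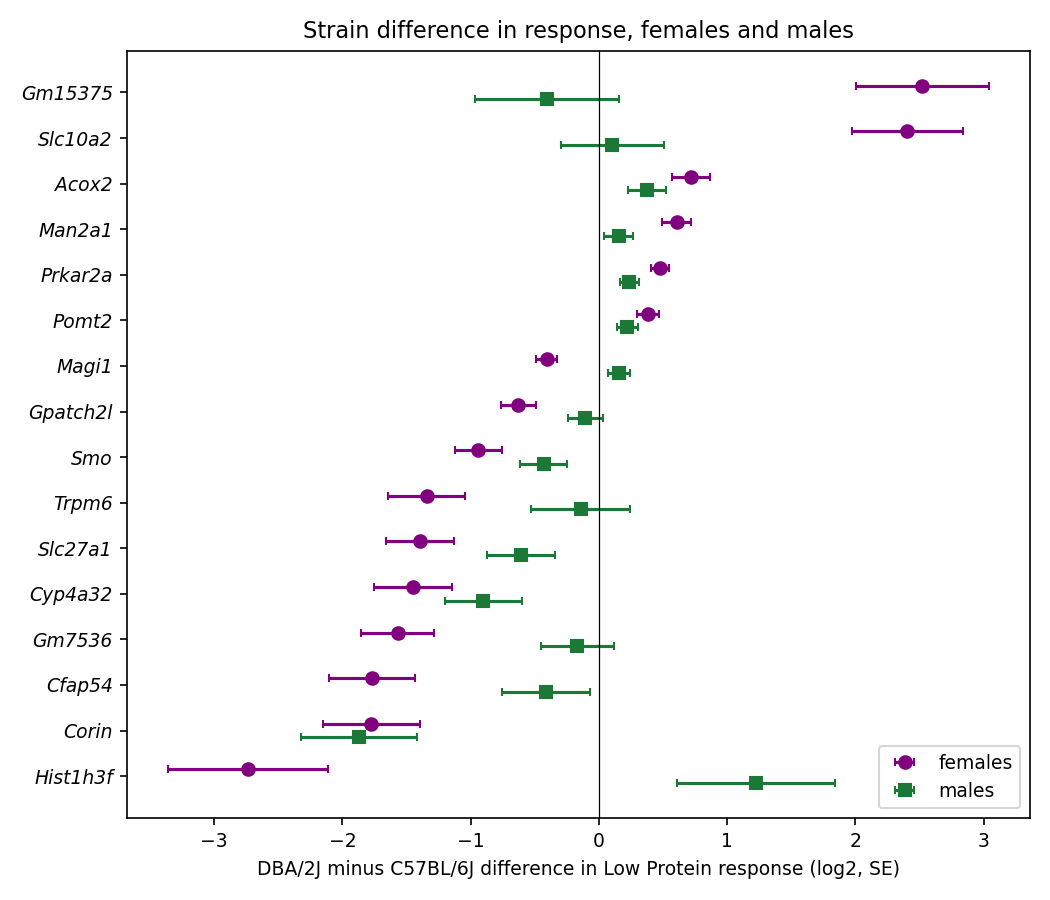
Interaction (DBA/2J minus C57BL/6J difference in Low Protein response, log2) in females (circles) and males (squares) for 16 called genes, with bars of 1 SE; Igflr1 and Gm12481 are left out. Male estimates lie nearer 0 except for Corin, and Gm15375, Magi1 and Hist1h3f lie on opposite sides of 0 in the sexes. The genes were chosen by their female values, which favours larger female estimates.

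With Medium Protein in place of Low Protein, no gene was called in the female interaction by edgeR (0%), and 683 (3.53%) had an unadjusted p below 0.05. That comparison uses the same Control libraries. The Medium Protein estimates were -0.01 for Prkar2a, 0.13 for Slc10a2, -0.55 for Slc27a1, -0.54 for Cyp4a32 and -0.46 for Corin, beside 0.48, 2.41, -1.39, -1.45 and -1.77 with Low Protein. The authors' deposited table gives each strain's log2 change but no interaction. Its C57BL/6J and DBA/2J values were -0.26 and 0.22 for Prkar2a, and -1.35 and 1.07 for Slc10a2. The adjusted p-values of the authors' own comparisons were 0.00062 and 0.0105 for Prkar2a. They were 0.0579 and 0.106 for Slc10a2, so neither change of Slc10a2 passed 0.05 there. For Sult1e1 in DBA/2J that table gave -2.09 (authors' adjusted p = 0.00638), a change that was not called here.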

How the data were processed

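The authors deposited expected counts per gene from RSEM, per the submitters' processing notes, for 72 mouse liver libraries. Stranded poly(A) libraries were sequenced over lanes that were merged before quantification, per the labels' protocols. For the aligner, genome build and annotation, no name was given in the sources used here. The authors also deposited a table of 17575 genes with log2 fold changes, adjusted p-values and an F score from their own comparisons. Its log2 values and adjusted p-values are named where used, and its score was not used. The submitters' notes also name edgeR, limma and R 3.4.3.

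The expected counts (11.6% of values not whole) were rounded to whole numbers. Of 51912 genes, 51633 IDs had a symbol in GENCODE mouse release 21, used for names only. Counts were scaled by TMM, filtered with filterByExpr (19362 genes left) and fitted with edgeR 4.0.16 (quasi-likelihood, R 4.3.3) with a mean for each of 12 groups of 6 libraries, so that all 72 libraries share the estimate of the spread (common biological coefficient of variation 0.207). P-values were adjusted over all genes by Benjamini-Hochberg, with calls below 0.05. Log2 changes are given with the standard error (±), and CPM are counts scaled to the TMM-adjusted library size. The code was tested on simulated data. Alternatives used DESeq2 1.42.0, limma 3.58.1, other scalings, filters, sample sets and each library left out.

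Groups follow the labels. Named genes were up to 12 called genes in each direction whose log2 CPM averaged 0 or more, predicted names left out, filled up to 6, up to 3 genes of smallest p in each of 43 lists, and a fixed set of 18 diet-response genes. The comparison, members and lists were chosen with earlier results of these data known. Near-identical gene copies (Cyp4a, Cyp3a41, histones) are uncertain, since reads may be divided between them.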

Additional observations from a re-analysis of the deposited data

Results flagged for a closer look

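In 34 genes, each group of 6 libraries was screened for a highest or lowest library far from the others, relative to the group's range. For normally distributed values chance would mark about 1 group in 20, a rate that was not checked for these CPM. A group with all but 1 library at 0 is always marked. Of 136 groups, 16 were marked. In C57BL/6J Control these were replicate 2 for Gm7536 (20.588 CPM, others 12.0 to 14.7), replicate 6 for Cyp4a32 (51.91 CPM, others 17.4 to 27.6) and replicate 1 for Asns (7.4281 CPM, others 0 to 0.490). In C57BL/6J Low Protein, replicate 1 was low for Slc27a1 (23.437 CPM, others 46.7 to 57.9) and replicate 2 was high for Elovl3 (13.812 CPM, others 7.14 to 8.16). Replicate 3 of that group was high for Ass1 (2961.9 CPM, others 1267 to 1602), Asl (1168.0 CPM, others 545 to 762) and Sult1e1 (0.94803 CPM, others 0.0978 to 0.323).

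In DBA/2J Control, replicate 2 was high for Cfap54 (3.3013 CPM, others 1.2 to 1.85) and Igfbp1 (154.07 CPM, others 22.4 to 64.2), and replicate 5 for Trpm6 (6.5173 CPM, others 3.17 to 4.42). In DBA/2J Low Protein, replicate 1 was high for Magi1 (45.499 CPM, others 34.6 to 38.1) and replicate 2 for Gm12481 (0.23304 CPM, others at 0). Replicate 3 was high for Olfr1033 (0.37822 CPM, others 0 to 0.0583), and replicate 6 for Cyp4a32 (539.62 CPM, others 282 to 348) and Igfbp1 (77.736 CPM, others 10.4 to 30.4).

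The Low Protein response differed between the strains by edgeR's test of the interaction for 18 genes. The log2 interaction was 0.479 for Prkar2a, 2.4052 for Slc10a2, 0.6057 for Man2a1, 2.5209 for Gm15375, 0.7178 for Acox2 and 0.3837 for Pomt2. It was -1.5682 for Gm7536, -1.3944 for Slc27a1, -1.7679 for Cfap54, -0.9419 for Smo, -0.4082 for Magi1 and -1.4501 for Cyp4a32. It was -0.6276 for Gpatch2l, -1.7746 for Corin, -1.3426 for Trpm6 and -2.7338 for Hist1h3f. The fitted -7.1637 of Gm12481 rests on 8 counts in DBA/2J Low Protein replicate 2, since the other libraries of that group had none. It ran from -10.6 to -6.88 when a library was left out. Igflr1 is given by its bounds, at least 19.653-fold higher in C57BL/6J and at least 21.765-fold lower in DBA/2J, which cover counting error only. The interaction also differed between the sexes by edgeR's test, females minus males, for Magi1 (-0.5658), Hist1h3f (-3.9569), Amacr (-0.5176) and Hist1h4c (-4.2021).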

How the results depend on the processing

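Over 682 values of the 18 called genes under other settings, 93 kept direction but missed the threshold and none reversed. The other 589 kept direction and call, except that the DESeq2 values of Igflr1 and Hist1h3f among them had no adjusted p. Slc10a2, Cfap54 and Gm7536 were called under all 14 settings other than leaving out single libraries. The number of genes called in the female interaction (18) was 123 with DESeq2, 74 with limma-voom sample weights, 32 with the code letter as a term, 6 with the compared groups only and 7 against a fold of 1.2. It was 50 without the 2 libraries apart on the second component and 11 without the 2 with most genes detected, both chosen after seeing the data. For C57BL/6J females (629) it was 295 with library totals, 337 without a filter, 364 with the compared groups only, 38 against a fold of 1.2 and 395 without the 2 libraries with most genes. For DBA/2J females (158) it was 69 with library totals, 102 without a filter, 52 with the compared groups only, 105 with females only, 274 with DESeq2, 386 with voom sample weights and 13 against a fold of 1.2. For the male interaction (558) it was 995 with library totals (107 higher and 888 lower against 382 and 176, with the median of all genes at -0.17), 264 without a filter, 950 with voom sample weights and 90 against a fold of 1.2. For females minus males (78, of which 20 higher) it was 6 with library totals, all higher and with the median of all genes at 0.13, 20 without a filter, 123 with a filter of 1 CPM, 48 with the compared groups only, 316 with DESeq2, 298 with voom sample weights, 51 with the code letter and 0 against a fold of 1.2. Leaving out each library gave 12 to 83, 322 to 777, 74 to 238, 323 to 624 and 24 to 235 calls in these 5 comparisons. The lowest male count was without C57BL/6J Low Protein replicate 5, and the lowest and highest counts for females minus males were without DBA/2J female Control replicate 2 and C57BL/6J female Control replicate 3. Reversed values were -0.0323 for Cyp3a11 without the 2 libraries apart on the second component, and for Orm2 from -5.1379 to 0.0935 over single libraries left out. With library totals the medians of ATF4 and integrated stress (-0.0245), aminoacyl-tRNA synthetases (-0.0104), growth hormone and IGF1 axis (-0.0208), iron and hepcidin (-0.0016) and lipoproteins (-7e-04) changed sign. The cause was not tested. Low counts limit Igflr1, Gm12481 and Hist1h3f.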
